A study of Mus musculus with 21 samples.

Results

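The 10 genes described here drive or brake the passage of a cell through G1, the phase before DNA replication, or mark its arrest there in kidney injury. They were chosen by symbol: the D-type cyclins Ccnd1, Ccnd2 and Ccnd3, cyclin E1 (Ccne1), the kinases Cdk4 and Cdk6, the inhibitors Cdkn1b and Cdkn2b, and the arrest markers Timp2 and Igfbp7. They are 10 of 54123 genes with reads assigned through the annotation. All samples came from wildtype mice (the methods give male C57BL/6 mice of 8 to 12 weeks), and cells were taken 24 hours after surgery. Polymorphonuclear neutrophils (PMNs) were isolated from blood, as the labels state, and tubular epithelial cells (TECs) from kidney, which the methods describe as bound to beads against prominin-1 (Prom1).

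Surgery was a sham operation or renal ischemia-reperfusion injury (IRI), in which the methods give 32 minutes of clamping of both renal pedicles. Before it, mice received remote ischemic preconditioning (RIPC), with 3 cuff inflations of 5 minutes at the hind limb, or the control procedure. The 8 groups held 21 libraries, 10 of PMNs and 11 of TECs. The groups were PMNs after sham surgery with control (n = 2) or RIPC (n = 3), PMNs after IRI with control (n = 2) or RIPC (n = 3), TECs after sham surgery with control (n = 3) or RIPC (n = 3), and TECs after IRI with control (n = 2) or RIPC (n = 3). The study describes the libraries of a group as biological replicates, and whether a library pooled cells of several mice is not given in the sources used here. Libraries held between 20881334 and 30507235 estimated reads in PMNs and between 21479605 and 51624602 in TECs.

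A D-type cyclin binds CDK4 or CDK6, and the active kinase phosphorylates the retinoblastoma protein, which releases E2F factors and lets cyclin E with CDK2 carry the cell into S phase. The INK4 protein p15, encoded by Cdkn2b, blocks CDK4 and CDK6, and p27, encoded by Cdkn1b, binds the cyclin-CDK complexes. TIMP-2, an inhibitor of matrix metalloproteinases, and IGFBP7, a binding protein of insulin-like growth factors, are known as urinary markers of tubular cell stress and are tied to G1 arrest. Neutrophils in blood are normally postmitotic, whereas tubular cells are mostly quiescent and can divide again after injury.

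The promoter of Cdk4 is shown because it held the most motif matches of the members. RefSeq windows of build GRCm38.p6 were found for 8 of the 10 members (9 windows), and the 250 bases before each start were searched on both strands for the E box CACGTG, the E2F motifs TTTCCCGC and TTTGGCGC, the CRE TGACGTCA, the AP-1 motif TGANTCA, the TATA box TATAAA and an NF-kB motif. Cdk4 had 4 E boxes, which are the capitals in its sequence at chr10:127063285-127063534 on the plus strand.
Cdk4: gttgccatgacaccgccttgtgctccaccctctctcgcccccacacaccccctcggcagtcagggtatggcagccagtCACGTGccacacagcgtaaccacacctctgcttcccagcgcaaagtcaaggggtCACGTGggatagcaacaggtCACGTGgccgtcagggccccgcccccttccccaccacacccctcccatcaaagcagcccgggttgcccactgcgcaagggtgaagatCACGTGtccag

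An E box was in 6.02% of all 32851 windows, and 4 or more of them were in 7 windows (0.0213%). The Cdk6 window held 1 E box and 1 TATA box (12.4% of all windows), and that of Cdkn2b held 1 CRE (1.55%). The letters searched for E2F (1.3% of windows), AP-1 (6.75%) and NF-kB (7.25%) were in none of the 9 windows. Each match is a description of these letters and not a binding site.

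Ccnd3 is shown with both of its RefSeq starts, because its reads were split between them. The upstream window lies at chr17:47504801-47505050 and the downstream one at chr17:47593217-47593466, both on the plus strand, and neither held a searched motif.
Ccnd3 upstream: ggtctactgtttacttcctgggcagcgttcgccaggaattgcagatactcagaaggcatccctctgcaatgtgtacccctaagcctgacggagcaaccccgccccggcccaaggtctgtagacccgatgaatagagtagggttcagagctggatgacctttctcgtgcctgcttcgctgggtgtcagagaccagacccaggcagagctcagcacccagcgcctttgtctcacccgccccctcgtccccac
Ccnd3 downstream: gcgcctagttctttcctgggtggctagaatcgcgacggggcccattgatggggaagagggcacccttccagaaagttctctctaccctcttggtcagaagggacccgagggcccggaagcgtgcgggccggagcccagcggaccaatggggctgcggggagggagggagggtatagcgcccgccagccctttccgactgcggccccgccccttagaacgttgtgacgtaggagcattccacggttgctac

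The annotated transcripts of Ccnd3 that start at these places are 88385 bases apart at their first bases, with 13 transcripts at the upstream start, 3 at the downstream start and 5 that begin further downstream. Salmon assigned most Ccnd3 reads to the downstream start in 9 of 10 PMN libraries and 10 of 11 TEC libraries. In PMNs the downstream share was between 70.8% and 96.6% in those 9 libraries, and in TECs it was between 69.0% and 97.8% in those 10. The exceptions were the 2 libraries with the fewest Ccnd3 reads. PMN sham RIPC replicate 1 had 83 reads and a downstream share of 0%, and TEC IRI RIPC replicate 2 had 126 reads and a share of 28.5%. A single transcript held nearly the whole of the downstream share, with a median of 78.9% of Ccnd3 reads in PMNs and 93.8% in TECs. These shares are estimates, since reads in common exons are divided between transcripts by Salmon.

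**Figure D1:**
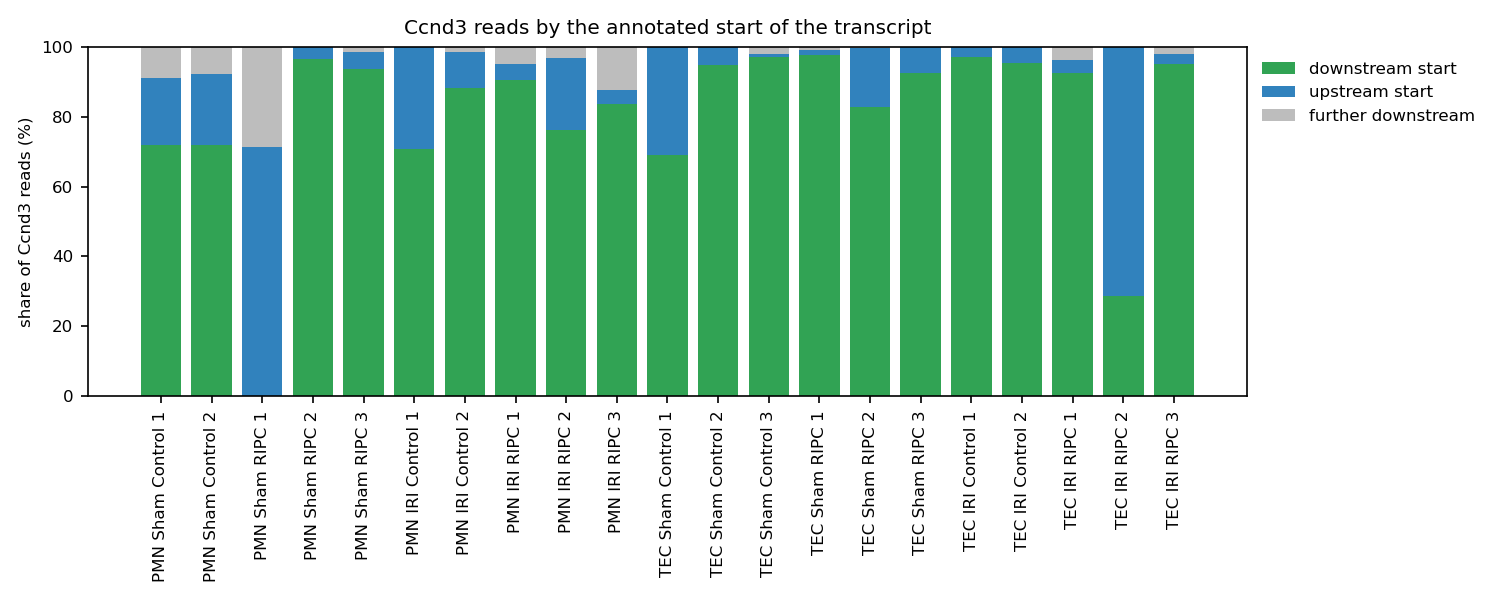
The bars show, for each of the 21 libraries, the percentage of estimated Ccnd3 reads assigned to transcripts of the downstream start, the upstream start or starts further downstream. The downstream start holds most reads in 19 libraries and not in PMN Sham RIPC 1 or TEC IRI RIPC 2, which had 83 and 126 Ccnd3 reads.

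The cells expressed the markers of their labels, but PMN libraries also held other cells' transcripts. The summed level of 6 neutrophil markers was between 5718 and 28465 CPM in PMNs (CPM, counts scaled to library size with TMM factors over all 21 libraries) and between 1.52 and 89.3 CPM in TECs. The summed level of 10 proximal tubule markers was between 1245 and 13766 CPM in TECs and between 271 and 4014 CPM in PMNs. In PMNs after sham surgery 6 macrophage markers summed to between 2736 and 8554 CPM, and after IRI to between 660 and 1739 CPM. PMN sham control replicate 1 stood apart from the other 4 sham PMN libraries, with 423 CPM of proximal tubule markers and 3816 CPM of immature neutrophil markers, where the others had between 1054 and 4014 and between 1.34 and 204.7. PMN sham control replicate 2 had the 4014 CPM, and 5118 CPM of 5 distal tubule and collecting duct markers. The other sham PMN libraries had between 120 and 807 CPM of the distal markers, and TEC libraries between 83.8 and 1175 CPM. In bulk samples, fewer cells of a type and less RNA per cell cannot be told apart.

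Levels are compared between genes only as TPM, which is per transcript length. In TECs the highest median was that of Igfbp7 (94.8 TPM, range 45.0 to 221, n = 11), followed by Cdk4 (42.6, 15.1 to 87.2), Ccnd3 (25.9, 1.18 to 60.4) and Ccnd1 (9.16, 0.103 to 22.3). Igfbp7 exceeded Cdk4 in 10 of 11 TEC libraries, Cdk4 exceeded Ccnd3 in 10, and Ccnd3 exceeded Ccnd1 in 11. The order below was less settled: Cdkn1b (median 2.76 TPM) exceeded Cdk6 (1.57) in 8 of 11 libraries, and Ccnd2 (0.236) and Timp2 (0.0303) were near 0 in most.

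In PMNs the order was different at the top, and neighbours in it changed places between libraries. Ccnd3 had the highest median (78.6 TPM, range 1.55 to 244, n = 10), then Igfbp7 (19.5, 8.92 to 455), Cdkn1b (15.6, 6.88 to 30.4), Cdk4 (12.5, 0.0128 to 32.9) and Cdk6 (9.90, 1.23 to 16.9). Ccnd3 exceeded Igfbp7 in 6 of 10 PMN libraries, Igfbp7 exceeded Cdkn1b in 6, and Cdkn1b exceeded Cdk4 in 5. Ccnd2, Timp2 and Ccnd1 had medians of 6.58, 5.25 and 4.10 TPM.

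Ccne1 and Cdkn2b were at or under 3 reads in most libraries of both cell types. Ccne1, whose product binds CDK2 late in G1, had over 3 reads in 2 libraries, PMN IRI RIPC replicates 1 and 3, with 451 and 26 reads. Cdkn2b had over 3 reads in PMN sham control replicate 2 (306 reads), PMN IRI RIPC replicate 2 (158), TEC IRI RIPC replicate 3 (203) and TEC sham RIPC replicate 1 (4). A count of 0 allows up to 3 reads, which was between 0.0748 and 0.156 CPM depending on the library. No fold change is given for either gene, since whole groups were at or under this limit. Amplified reads are not separate molecules here, and the limit covers counting error only.

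**Figure D2:**
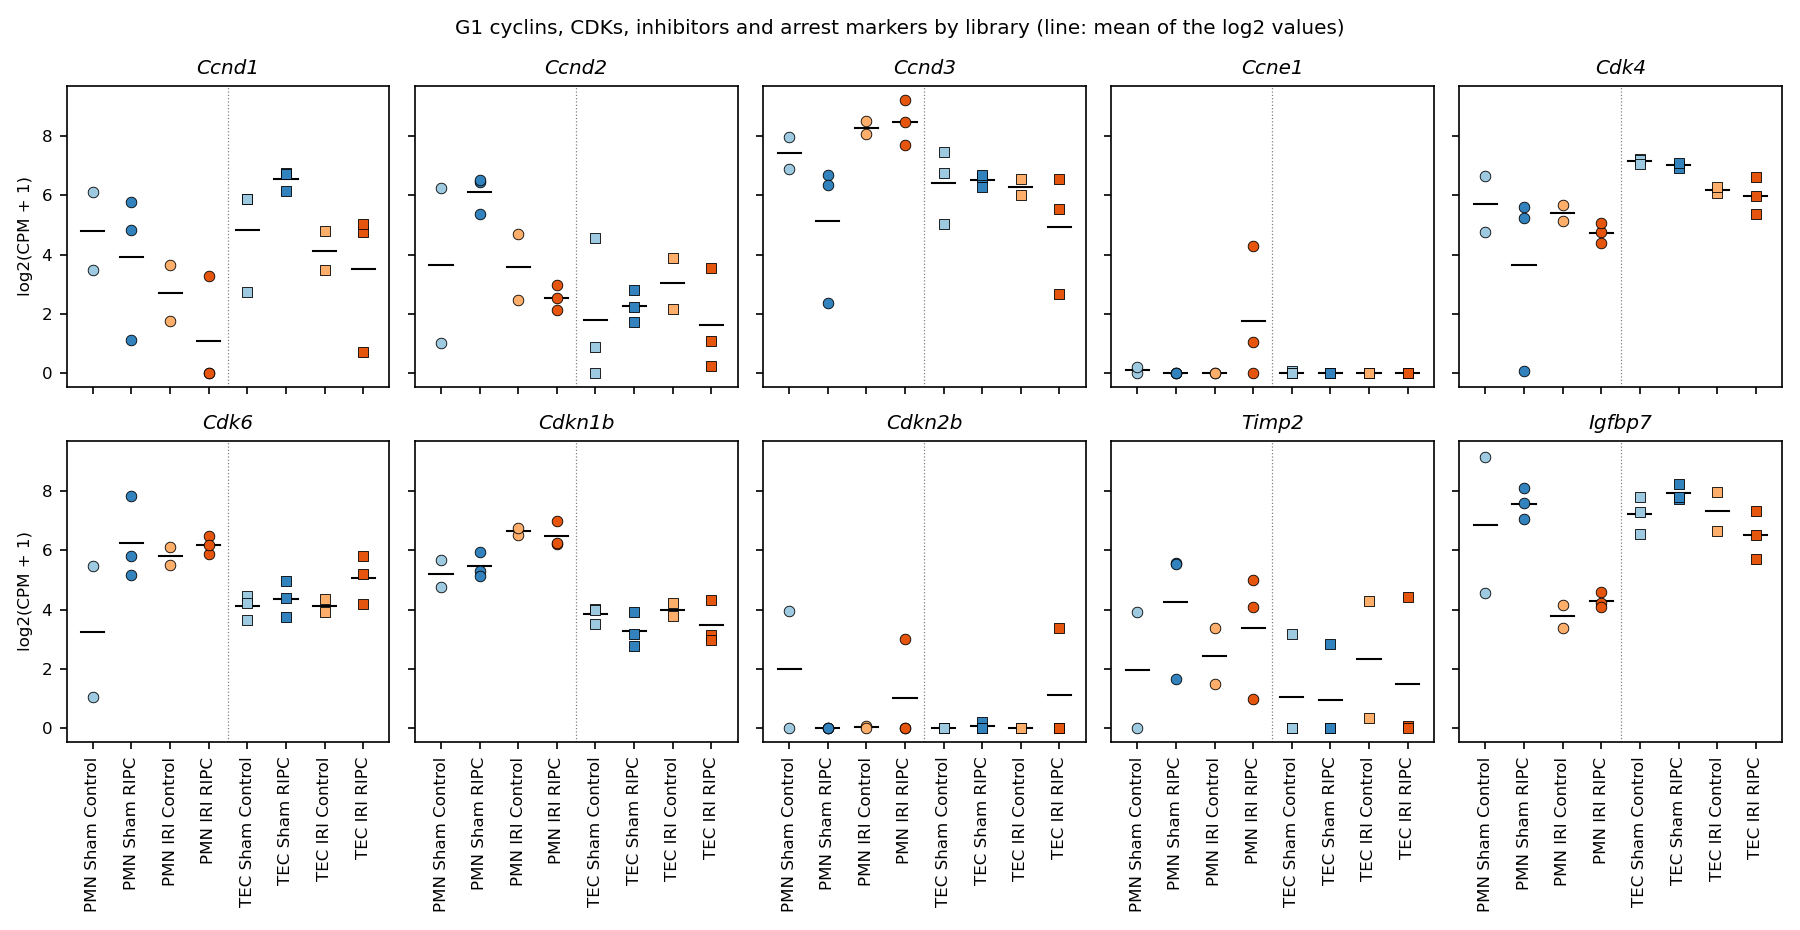
Each point is 1 library, on a scale of log2(CPM + 1), with circles for PMNs and squares for TECs in the 8 groups, and each line is the mean of the group's log2 values. Cdkn1b is higher in each PMN library than in any TEC library, and Cdk4 in TECs is lower in the 5 IRI libraries than in the 6 sham libraries.

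Cdk4, the catalytic partner of the D-type cyclins, made up most of the Cdk4 and Cdk6 message in TECs. Its share of the summed TPM of both kinases was between 87.5% and 98.3% in the 11 TEC libraries. This share depends on transcript length, since most Cdk6 reads were assigned to a transcript of 11525 bases. In TEC IRI RIPC replicate 3, for example, 869 Cdk4 reads and 776 Cdk6 reads gave a Cdk4 share of 94.1%. Reads of stretches shared with Tspan31, described below, cannot be told apart from Cdk4 reads. In PMNs that share was between 0.892% and 96.4%, and Cdk4 exceeded Cdk6 in 6 of 10 libraries. The low end was PMN sham RIPC replicate 2, where Cdk4 had 1 read.

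Ccnd3 was the leading D-type cyclin by TPM in 11 of 11 TEC libraries and in 8 of 10 PMN libraries. Its share of the summed D-type cyclin TPM was between 86.1% and 99.6% in the 5 PMN libraries after IRI. In the 5 sham PMN libraries it was 95.8% and 50.4% in the control group and 17.5%, 57.0% and 38.1% in the RIPC group. Ccnd2 led in 2 of those libraries, RIPC replicates 1 and 3. In TECs, Ccnd3 held between 52.6% and 90.9% and Ccnd1 between 4.34% and 45.3%, and Ccnd2 reached 40.2% in IRI control replicate 2. That library had 304 Ccnd2 reads and 1399 Ccnd3 reads. Of the Ccnd2 reads, Salmon assigned 119.4 to Ccnd2-206, a transcript of 627 bases, which raises the TPM. The 90.9% was in IRI RIPC replicate 2, where the D-type cyclins summed to only 1.29 TPM.

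**Figure D3:**
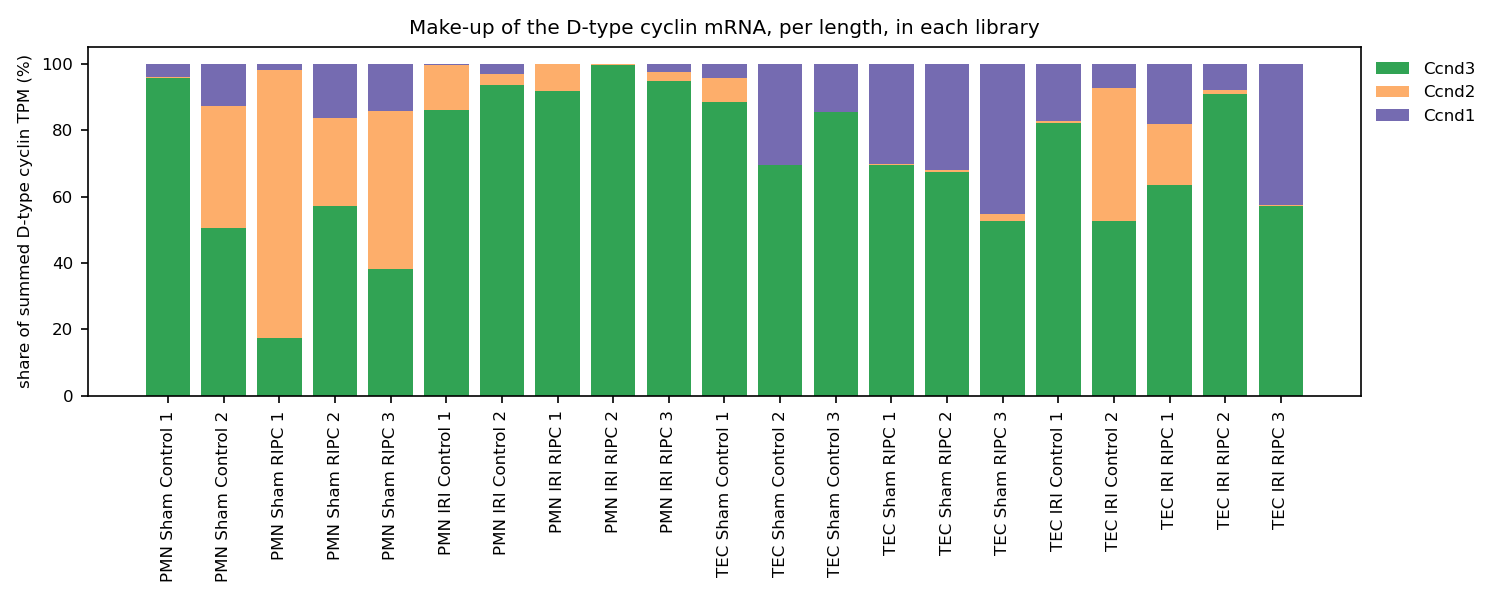
Stacked bars give the percentage of the summed TPM of the 3 D-type cyclins that each of them held in each of the 21 libraries. Ccnd3 is the largest part in 19 libraries, and Ccnd2 is the largest in PMN Sham RIPC 1 and PMN Sham RIPC 3.

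TECs and PMNs were compared over all 4 conditions in 1 fit of the 21 libraries with edgeR's quasi-likelihood F test. Of the 10 members, Cdkn1b passed a Benjamini-Hochberg adjusted p of 0.05 (6.87% of 31769 genes tested did), and 5 had an unadjusted p under 0.05 (17.8% of genes). Cdkn1b was lower in TECs by a log2 fold change of -2.37 (SE 0.42, edgeR adjusted p = 0.00106), and its libraries did not overlap between the cell types, which held for 1.1% of genes. The gene lies at chr6:134920401-134925513 on the plus strand (GRCm38). DESeq2 called 4 members and 17% of all genes.

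Cdkn1b was at 49.9 and 26.2 CPM in PMNs of the sham control group, at 38.9, 34.3 and 60.9 with sham RIPC, at 90.8 and 108 in the IRI control group, and at 73.8, 75.9 and 127 with IRI RIPC. In TECs it was at 15.4, 10.5 and 15.0 CPM in the sham control group, 8.01, 14.2 and 5.79 with sham RIPC, 12.9 and 17.5 in the IRI control group, and 7.93, 19.0 and 6.83 with IRI RIPC. The lowest PMN library was thus above the highest TEC library. The longer transcript Cdkn1b-202 held 25.4% of pooled Cdkn1b reads in PMNs and 7.59% in TECs. In the control groups alone, with 3 TEC and 2 PMN libraries after sham surgery and 2 of each after IRI, the difference of Cdkn1b was -1.48 after sham surgery (edgeR adjusted p = 0.509) and -2.71 after IRI (0.446).

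The other members did not pass between the cell types. Igfbp7 was higher in TECs by 1.39 on the log2 scale (SE 0.45, edgeR adjusted p = 0.0679), but lower in TECs by a log2 value of -0.90 when the sham control groups alone were compared. Without PMN sham control replicate 2, the Igfbp7 difference was 2.31 with an adjusted p of 0.00236. Cdk4 (1.37, SE 0.60, adjusted p = 0.210) and Ccnd1 (1.49, SE 0.96, 0.520) were higher in TECs. Cdk4 passed without PMN sham RIPC replicate 2 (1.27, edgeR adjusted p = 0.0454). Ccnd1 passed without PMN IRI RIPC replicate 3, but this leaves that group with 0 Ccnd1 reads, so no fold is given. Ccnd3 (-1.32, SE 0.51, 0.149), Cdk6 (-1.37, SE 0.54, 0.151) and Ccnd2 (-1.90, SE 0.95, 0.314) had lower values in TECs. Cdk6 differed by -0.23 without PMN sham control replicate 1. Ccnd2 differed by -0.62 without PMN sham control replicate 2 and by -2.95 without TEC sham control replicate 1. Cell type cannot be told apart here from tissue of origin and isolation.

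The effect of IRI was asked of each cell type by comparing IRI with sham surgery, with equal weight to the RIPC and the control groups. In PMNs none of the 10 members passed by edgeR (0.416% of 25002 genes did), while 4 had an unadjusted p under 0.05 (11.8% of genes). DESeq2 called 2 members and 7.77% of all genes. In TECs none of the 8 members tested passed (1.4% of 25917 genes did), 1 had an unadjusted p under 0.05 (15% of genes), and DESeq2 called 0 (8.62% of genes). Ccne1 and Cdkn2b did not pass the filter on low counts in TECs. The median log2 fold change was -0.03 over the 10 members in PMNs against -0.01 over all genes, and -0.28 over the 8 members in TECs against 0.15 over all genes.

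Igfbp7, at chr5:77349240-77408041 on the minus strand (GRCm38), had the smallest p-value of the members in PMNs. In sham PMNs it was at 22.4 and 564 CPM in the control group and 274, 131 and 191 CPM with RIPC. After IRI it was at 9.48 and 17.0 CPM in the control group and 23.1, 17.5 and 16.2 CPM with RIPC. The sham libraries were thus higher except sham control replicate 1, which lay within the IRI range. The log2 difference of Igfbp7 was -3.94 (SE 0.80, unadjusted p = 0.000825, edgeR adjusted p = 0.111). DESeq2 called it (log2 -3.99, adjusted p = 9.15e-05), and so did edgeR without PMN sham control replicate 1 (-4.39, adjusted p = 0.00414), whereas without sham control replicate 2 it was -2.03 (0.297).

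The sums of proximal tubule markers were high in the same PMN libraries as Igfbp7. In the order of the Igfbp7 values just given, the 10 proximal tubule markers summed to 423, 4014, 1650, 1458 and 1054 CPM in the sham libraries. They summed to 312, 271, 302, 403 and 416 CPM after IRI, so that sham control replicate 1 was again near the IRI libraries. Igfbp7 CPM divided by this sum was between 0.0530 and 0.1815 in sham PMNs and between 0.006835 and 0.0267 in sham TECs. After IRI the ratio was between 0.0303 and 0.0767 in PMNs and between 0.0226 and 0.106 in TECs. Of the 10 markers, 9 had an unadjusted p under 0.05 with a lower value after IRI and 0 passed adjustment. Lrp2, the endocytic receptor megalin of the proximal tubule, was between 31.7 and 302 CPM in sham and between 5.71 and 57.7 CPM in IRI PMNs. In the order of the Igfbp7 values, the 6 endothelial markers summed to 39.0, 42.7, 74.4, 104 and 183 CPM in sham PMNs. After IRI they summed to 55.2, 66.5, 52.0, 15.9 and 10.5 CPM. Sham control replicates 1 and 2 thus lay within the IRI range of the endothelial markers, and the 3 sham RIPC libraries lay above it. The part of both marker lists in the Igfbp7 result was not tested.

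**Figure D4:**
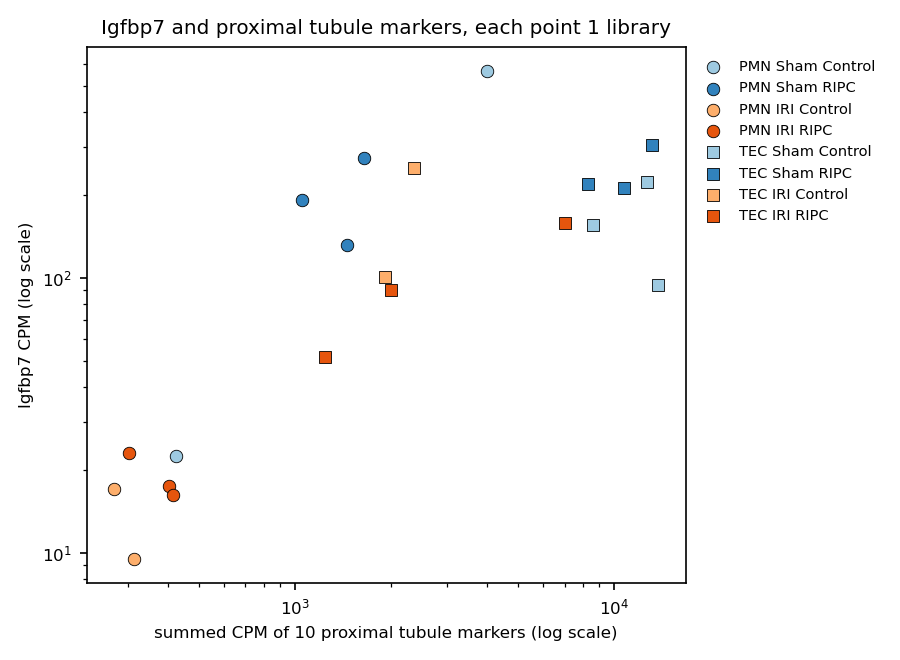
Each point is 1 library, with the summed CPM of 10 proximal tubule markers on the horizontal and Igfbp7 CPM on the vertical axis, both on log scales, for the 8 groups. In PMNs the 4 libraries with 1054 CPM or more of tubule markers have between 131 and 564 CPM of Igfbp7 and the other 6 have between 9.48 and 23.1 CPM.

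In TECs, Igfbp7 was at 156, 94.1 and 223 CPM in the sham control group, 212, 306 and 220 CPM with sham RIPC, 251 and 101 CPM in the IRI control group, and 90.3, 51.3 and 159 CPM with IRI RIPC. The groups overlapped, and the IRI effect was -0.61 on the log2 scale (SE 0.41, edgeR adjusted p = 0.546). The effect of IRI on Igfbp7 in TECs minus that in PMNs was 3.36 (SE 0.88, unadjusted p = 0.00109, edgeR adjusted p = 0.210), a comparison chosen after the data had been seen. Without PMN sham control replicate 2 it was 1.40. In it 0 of 10 members passed by edgeR (0% of genes), 2 had an unadjusted p under 0.05 (9.76% of genes) and DESeq2 called 1 (7.54% of genes). The other member with an unadjusted p under 0.05 was Ccnd3 (-2.39, SE 1.04, unadjusted p = 0.0325, edgeR adjusted p = 0.447).

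Among the drivers of G1 in PMNs, Ccnd3 had higher and Ccnd2 lower values after IRI. Ccnd3 was at 249 and 118 CPM in the sham control group and 4.11, 103 and 79.8 CPM with sham RIPC. After IRI it was at 268 and 364 CPM with control and 207, 601 and 359 CPM with RIPC, which overlapped the sham range only at sham control replicate 1. The log2 difference of Ccnd3 was 1.69 (SE 0.74, unadjusted p = 0.0466, edgeR adjusted p = 0.413).

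Ccnd2 was at 1.02 and 75.9 CPM in the sham control group, 87.6, 40.4 and 90.8 CPM with sham RIPC, 25.1 and 4.58 CPM in the IRI control group and 6.81, 3.43 and 4.80 CPM with IRI RIPC. Its log2 difference was -2.62 (SE 1.04, unadjusted p = 0.0326, edgeR adjusted p = 0.413), and 0.06 without sham control replicate 2. Sham control replicate 1 had the lowest value of the 10 PMN libraries. The part of the macrophage and tubule markers given above in the Ccnd2 and Ccnd3 differences was not tested.

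Ccnd1 in PMNs was between 1.19 and 67.8 CPM after sham surgery and between 0 and 11.6 CPM after IRI, with 0 reads in IRI RIPC replicates 1 and 2, and its test gave an edgeR adjusted p of 0.547. Cdk6, the kinase that blood cells use beside Cdk4, was between 1.05 and 227 CPM in sham and between 44.8 and 89.0 CPM in IRI PMNs, so that the sham libraries were spread on both sides of the IRI range. In TECs it was between 11.6 and 54.8 CPM.

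Cdkn1b was the member whose PMN groups did not overlap between IRI and sham surgery (5.5% of genes did not). All 5 IRI libraries, from 73.8 to 127 CPM, were above the 5 sham libraries, from 26.2 to 60.9 CPM. The log2 difference was 1.21 (SE 0.42, unadjusted p = 0.0189, edgeR adjusted p = 0.374), and DESeq2 called it (1.27, adjusted p = 0.0183). The 6 neutrophil markers summed to between 5718 and 21939 CPM in sham and between 10300 and 28465 CPM in IRI PMNs. The 6 immature neutrophil markers summed to between 802 and 2381 CPM in the IRI libraries, to 3816 CPM in sham control replicate 1 and to between 1.34 and 204.7 CPM in the other 4 sham libraries. The macrophage markers summed to between 2736 and 8554 CPM in sham and between 660 and 1739 CPM in IRI PMNs. The proximal tubule markers summed to between 423 and 4014 CPM in sham and between 271 and 416 CPM in IRI PMNs. The part of these lists in the Cdkn1b difference was not tested. In TECs the Cdkn1b ranges of sham and IRI libraries overlapped.

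In TECs, Cdk4 (chr10:127063534-127067920, plus strand, GRCm38) was the member whose IRI and sham libraries did not overlap (4.6% of genes did not). It was at 149, 147 and 133 CPM in the sham control group and 127, 121 and 137 CPM with sham RIPC. After IRI it was at 67.3 and 77.2 CPM with control and 98.2, 62.6 and 40.1 CPM with RIPC. The log2 difference was -0.99 (SE 0.38, unadjusted p = 0.0194, edgeR adjusted p = 0.249), and in the control groups alone -1.04 (SE 0.57, adjusted p = 0.579). Tspan31, on the opposite strand, shares 17% of the 50-base stretches of Cdk4 transcripts, and whether the libraries kept strand is not given in the sources used here. Tspan31 was between 96.5 and 202 CPM in sham and between 31.4 and 95.0 CPM in IRI TECs, so reads of the shared stretches cannot be told apart.

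The proximal tubule markers also had lower sums in TECs after IRI, between 1245 and 7036 CPM against 8268 to 13766 CPM after sham surgery, and 6 of the 10 passed the test with lower values. Their part in the Cdk4 difference was not tested. Ccnd1, the D-type cyclin induced by growth factors, was at 5.62, 57.2 and 57.4 CPM in sham control TECs and 70.0, 107 and 105 CPM with sham RIPC. After IRI it was at 26.6 and 10.2 CPM with control and 26.4, 0.63 and 31.9 CPM with RIPC. All but sham control replicate 1 of the sham libraries were above the IRI libraries, and the log2 difference of Ccnd1 was -1.75 (SE 0.83, unadjusted p = 0.0538, edgeR adjusted p = 0.340). LTO1, also on the opposite strand, shares 21.6% of the stretches of Ccnd1, and was between 9.70 and 29.1 CPM in sham and between 0 and 99.05 CPM in IRI TECs (medians 16.9 and 23.7 CPM). Ccnd3 in TECs was lower by -0.72 (SE 0.62, adjusted p = 0.644).

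Timp2 was found irregularly in both cell types. In TECs it was at 0, 0 and 7.97 CPM in the sham control group, 0, 6.10 and 0 CPM with sham RIPC, 18.8 and 0.275 CPM in the IRI control group, and 20.5, 0.0423 and 0 CPM with IRI RIPC. It had over 3 reads in 5 of 11 TEC libraries and in 9 of 10 PMN libraries, where it reached 46.6 CPM. Its biological coefficient of variation between TEC replicates, as edgeR estimated it, was 2.51, against 0.578 for Igfbp7 and 0.543 for Cdk4.

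The comparison of IRI with sham surgery in the control groups alone leaves 2 PMN libraries on each side. In PMNs 0 members passed by edgeR (0% of genes), 1 had an unadjusted p under 0.05 (4.45% of genes), and DESeq2 called 1, Igfbp7 (2.93% of genes). Groups did not overlap for 4 of 10 members there (32.1% of genes). Igfbp7 was lower (-4.48, SE 1.25, edgeR adjusted p = 0.736), but by -0.70 without sham control replicate 2. The levels of Ccnd3, Cdk6 and Cdkn1b were higher in both IRI libraries than in both sham libraries. In TECs 0 of 8 members passed (0.00386% of genes), 0 had an unadjusted p under 0.05 (8.59% of genes), DESeq2 called 0 (5.08% of genes), and Cdk4 alone of the 10 did not overlap (23.5% of genes).

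Whether RIPC changed these genes was asked within each kind of surgery, and no member passed in either cell type by edgeR or DESeq2. DESeq2 called 3.27% of all genes in PMNs after sham surgery and 1.7% after IRI, and 1.66% and 2.7% in TECs. In PMNs after sham surgery 0 of 10 members passed by edgeR (0.004% of genes), and 0 had an unadjusted p under 0.05 (4.6% of genes). In PMNs after IRI 0 of 10 passed (0% of genes), and 0 had an unadjusted p under 0.05 (2.72% of genes). In TECs 0 of 8 passed after sham surgery (0% of genes) and after IRI (0.00386% of genes), and 0 had an unadjusted p under 0.05 (4.53% and 4.35% of genes).

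The separate groups were few. In PMNs after sham surgery, Ccnd3 was lower in the 3 RIPC libraries than in the 2 controls (12.7% of genes did not overlap), with a log2 difference of -1.59 (SE 1.00, edgeR adjusted p = 0.705). After IRI, Cdk4 was at 26.4, 32.3 and 20.1 CPM with RIPC and 34.5 and 50.6 CPM with control (16.4% of genes did not overlap), a log2 difference of -0.74 (SE 1.59, adjusted p = 1). In TECs after sham surgery, Ccnd1 was higher in the 3 RIPC libraries than in the 3 controls (7.82% of genes did not overlap), with a log2 difference of 1.20 (SE 1.07, adjusted p = 0.983). In TECs after IRI all 10 members overlapped between RIPC and control (16.9% of genes did not).

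The arrest marker Igfbp7 had a log2 difference between RIPC and control of 0.63 (SE 0.55, edgeR adjusted p = 0.973) in TECs after sham surgery and of -0.80 (SE 0.60, adjusted p = 0.808) after IRI. The latter was -0.0245 without IRI control replicate 1 and -1.29 without IRI control replicate 2. The interaction of RIPC and surgery in TECs was -1.43 for Igfbp7 (SE 0.81, unadjusted p = 0.0996, adjusted p = 0.770). In the interaction 0 members passed by edgeR or DESeq2 in PMNs (0% of genes by edgeR, 2.63% by DESeq2) or in TECs (0% and 2.32%). At an unadjusted p under 0.05 there were 2 in PMNs, Ccne1 and Cdkn2b, each resting on groups at or under 3 reads (5.74% of genes), and 0 in TECs (7.21%). In sham PMNs the Igfbp7 difference was -0.59 (SE 0.98), and 3.16 without sham control replicate 2.

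**Figure D5:**
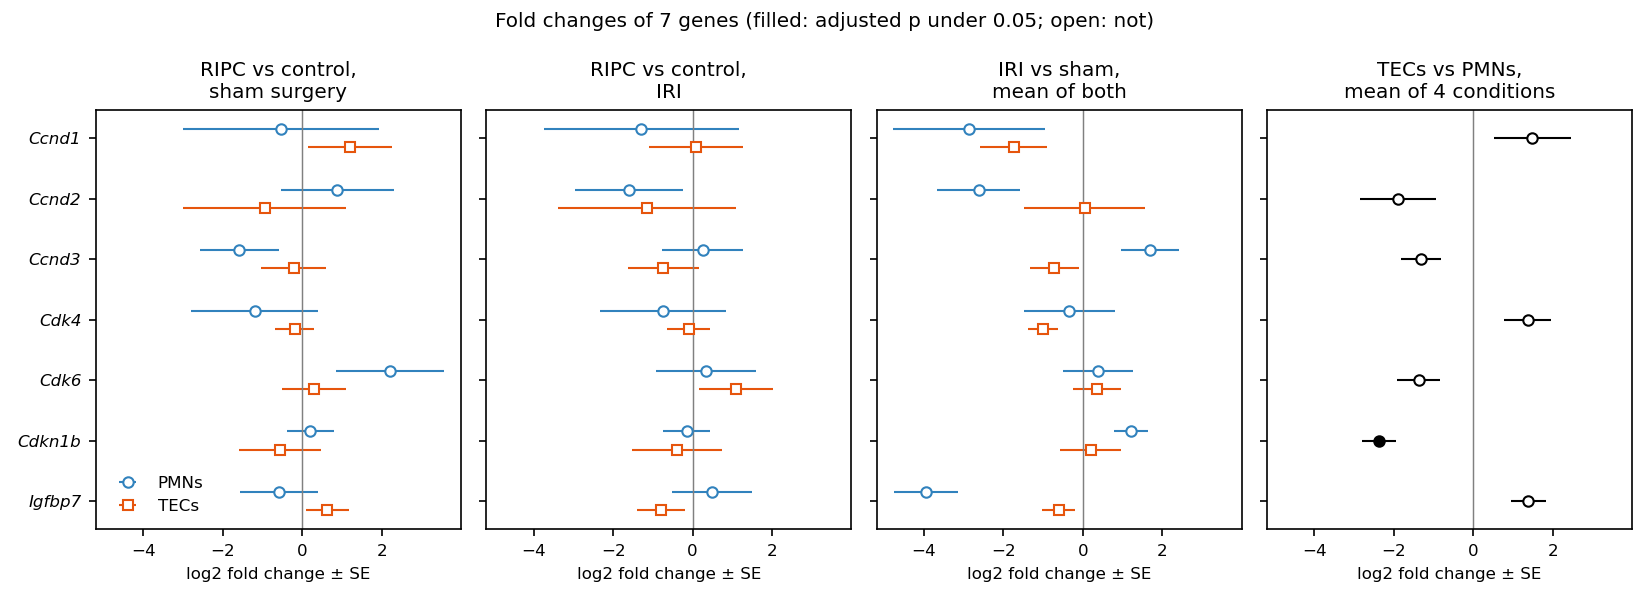
Log2 fold changes with their standard errors are shown for 7 members in PMNs (circles) and TECs (squares), for the effect of RIPC in sham-operated and in IRI mice and for the effect of IRI, and at the right for TECs against PMNs. The only filled symbol, which marks an adjusted p under 0.05, is Cdkn1b between TECs and PMNs at -2.37.

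Around the members, 81 other genes of the cell cycle, the TIMP and IGF systems and tubular injury were followed. In PMNs 75 of them were tested and 0 passed after IRI against sham surgery, with 9 higher and 2 lower at an unadjusted p under 0.05 (11.8% of all genes). In TECs 77 were tested, and 1 rose and 2 fell after IRI (1.4% of all genes passed). Krt20, a keratin that appears in injured tubules, rose from between 0 and 15.9 CPM to between 382 and 1458 CPM (edgeR adjusted p = 0.00466), and Timp3, a matrix-bound metalloproteinase inhibitor, fell by 1.99 (SE 0.45, 0.0444). Igfbp1 fell from between 11.2 and 159 CPM to between 0 and 1.67 CPM (adjusted p = 0.0195), and no fold is given because all 3 IRI RIPC libraries had 0 reads. For each comparison of RIPC with control, and each interaction, 0 of these genes passed.

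Cdkn1a, whose product p21 inhibits cyclin-CDK complexes and is a target of p53, had higher values after IRI in both cell types without passing. In PMNs Cdkn1a was between 63.7 and 408 CPM after sham surgery and between 764 and 1459 CPM after IRI, a log2 difference of 1.98 (SE 0.46, edgeR adjusted p = 0.152). In TECs Cdkn1a was between 12.8 and 317 CPM after sham surgery and between 203 and 552 CPM after IRI (2.48, SE 0.64, 0.0801). Rbl2, a pocket protein related to the retinoblastoma protein, had a log2 value of -2.80 after IRI in TECs (SE 0.85, adjusted p = 0.140).

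By group in TECs after IRI, the median log2 change against 0.15 over all genes was 0.16 over 4 other CDK inhibitors, -0.16 over 12 pocket proteins and E2F factors and 0.55 over 7 late G1 and S phase kinases and cyclins. It was 0.28 over 7 genes that degrade p27 and D-type cyclins, 0.16 over 15 S phase genes, 0.39 over 17 G2 and M phase genes, -1.38 over 10 TIMPs, MMPs and IGF binding proteins and 6.73 over 5 tubular injury genes. In PMNs the same medians, against -0.01 over all genes, were -1.51, -0.20, 1.09, 0.75, -0.57, 1.42, 0.78 and 2.32, over 4, 12, 7, 7, 15, 16, 9 and 5 genes. Medians over so few genes can mislead. Of the 4 other CDK inhibitors in PMNs, 2 were higher and 0 lower at an unadjusted edgeR p under 0.05 (11.8% of all genes). No S phase, G2 or M phase gene passed in either cell type.

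Between the cell types, 6 of 78 such genes were higher and 3 lower in TECs, where 6.87% of all genes passed. Cdkn2d, the INK4 inhibitor p19, was lower (-3.72, SE 1.11, edgeR adjusted p = 0.0457), the same direction as Cdkn1b. E2f5, a repressive E2F factor, was higher (median 15.7 CPM in TECs and 0.181 in PMNs, adjusted p = 0.0427). Mcm7, a subunit of the replicative helicase, was higher (median 9.18 CPM in TECs and 0.225 in PMNs, adjusted p = 0.0108). Igfbp4 (2.66, SE 0.47, 0.000902) and Timp3 (2.30, SE 0.41, 0.00107) were higher, and Igfbp6 was lower (median 0 CPM in TECs and 16.6 in PMNs, adjusted p = 0.0267). Of the injury genes, Havcr1 and Spp1 were higher in TECs and Lcn2, which neutrophils also store, was lower.

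The genes most like the arrest markers across the 11 TEC libraries, among 11429 genes with a mean of at least 5 CPM, were described by Pearson's r of log2(CPM + 1). For Igfbp7 they were Ppa1 (0.914), Pnisr (0.891) and Mgat4b (0.891). For Timp2 they were Slc41a2 (0.963), Nfkbie (0.888) and Lrrfip1 (0.867). Timp2 had over 3 reads in only 5 of the 11 libraries, so its values of r rest on few libraries. Its own mean of 4.88 CPM was under the minimum of 5 CPM set for the other genes. The points share libraries and their depth, and the genes were picked as the highest of many.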

How the data were processed

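RNA was measured by RNA-Seq in 21 libraries with 2 files each. The authors trimmed the reads (Trim Galore 0.6.4) and quantified them with Salmon 1.0.0, with corrections for sequence and GC bias, against Gencode vM23. They deposited estimated counts per transcript, without normalization, and TPM and effective lengths per transcript. Here estimated counts were summed over a gene's transcripts and both files of a library and rounded. TPM was summed per gene and averaged over the files. Gencode M21 (GRCm38) named the genes, and 884 of 140748 transcripts did not match.

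For the median gene, the 2 files of a library were closer than independent draws of reads, with a median chi-square per gene of 0.0133 to 0.079 against 0.455, so the sum may count the same fragment in both. The mean chi-square per gene was between 0.89 and 3.96, so some genes differed far more between the files than the median gene. Each file alone was an alternative.

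Tests were edgeR 4.0.16 quasi-likelihood F tests (limma 3.58.1, R 4.3.3) with TMM, filterByExpr and a mean per group, fitted per cell type, or to all libraries for comparisons between cell types. A gene was called at a p-value under 0.05 after Benjamini-Hochberg adjustment across the whole table, and the SE is the log2 fold change divided by the square root of F. DESeq2 1.42.0 was an alternative. Sex chromosome and mitochondrial genes were left out, as by the authors. The tests were checked on simulated counts, where recovery of changed genes was required only at a smaller spread between replicates than most genes here had. The check thus does not show what could be detected at the spread of these data.

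The members and lists were chosen with earlier results of these data known. All 10 members were named in the text; of each further cell cycle list, up to 3 genes called, or with the smallest p, could be named.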

Additional observations from a re-analysis of the deposited data

How the results depend on the processing

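No member passed in any comparison of RIPC with control, in the interactions or in TECs after IRI under any alternative run. For IRI against sham surgery in PMNs, where 0 members passed, the count was 2 without a filter on low counts (2.5% of all genes), 1 of 5 members tested with at least 10 reads in every library (6.59%) and 2 by DESeq2 (7.77%), and between 0 and 1 with a library left out (1 without PMN sham control replicate 1, as in the next 2 comparisons). In the control groups alone it was 1 without a filter (0.309%) and 1 by DESeq2 (2.93%), and between 0 and 1 with a library left out. For the difference of the IRI effect between TECs and PMNs it was 1 without a filter (1.66%), 1 of 4 with at least 10 reads (2.85%) and 1 by DESeq2 (7.54%), and between 0 and 1 with a library left out. For TECs against PMNs, where 1 member passed, it was 4 of 4 with at least 10 reads (27.6%), 4 by DESeq2 (17%), 0 in the sham control groups alone, 0 in the IRI control groups alone and between 1 and 2 with a library left out. The cause was not tested. With a library left out, 2 log2 fold changes changed sign, both without PMN sham control replicate 2: Igfbp7 between RIPC and control after sham surgery, to 3.16 (range with a library left out -1.58 to 3.16), and Ccnd2 in PMNs after IRI, to 0.0559 (-3.42 to 0.0559). In the sham control groups alone, Igfbp7 between TECs and PMNs changed sign to -0.896. With each file alone, no count of members changed.

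Replicate numbers are shared between groups. Deviations of same-numbered libraries from their group means had correlations between -0.023 and 0.0303 in PMNs and between -0.1 and 0.137 in TECs. For libraries with different numbers these were between -0.0303 and 0.0294 in PMNs and between -0.119 and 0.0717 in TECs. Deviations within a group sum to 0, so the pairs are not independent. With the replicate number as a block, 0 members passed in each comparison within a cell type, and 1, Cdkn1b, between TECs and PMNs. Over all genes the block moved the calls after IRI from 104 to 23 in PMNs and from 363 to 404 in TECs. Over all alternatives these calls ranged from 5 to 1942 in PMNs and from 92 to 2234 in TECs, and those between TECs and PMNs, 2182 as reported, from 71 to 5389.

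Groups of 2 or 3 libraries limit what could be detected: the coefficient of variation between replicates was between 0.628 (Cdkn1b) and 3.16 (Cdkn2b) for the members in PMNs and between 0.543 (Cdk4) and 2.51 (Timp2) in TECs.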
